A study of Homo sapiens with 16 samples.

Results

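The regions described here are stretches of chromatin that carried a call of H3K27ac, acetylation of lysine 27 of histone H3, after TGF-beta and not before it, and that carried no call of H3K9ac, acetylation of lysine 9, in any library. Peaks of the 4 H3K27ac libraries were merged wherever they overlapped by at least 1 bp on chromosomes 1 to 22 and X, which gave 104387 merged regions. Of these, 12498 (12.0%) had a peak in each TGF-beta library and none in the vehicle libraries, and are called gained H3K27ac below. The regions reported on are the 10275 gained regions that overlapped no peak of any of the 4 H3K9ac libraries, which are 82.2% of the gained regions (exact 95% Clopper-Pearson interval 81.5 to 82.9%, counting error only) and 9.84% of all merged regions. Both acetylation marks chose these regions, so what is said of the marks in them is a description without a test.

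The cells were H69, an immortalised line from human intrahepatic bile duct epithelium (cholangiocytes), labelled as biliary epithelial cells. The TGF-beta group had recombinant human TGF beta at 10 ng/ml for 16 hours and the other group had vehicle. Chromatin immunoprecipitation and sequencing was done on cells cross-linked with 1% formaldehyde for 10 min, with 2 TGF-beta and 2 vehicle libraries for each of H3K27ac (replicates 1 and 2), H3K9ac (replicates 1 and 2) and SMAD3 (replicates 4 and 5). The labels do not say that the replicates came from separate cultures, so p-values measure only the spread between these libraries, and all of them come from 1 cell line. A change in the share of cells that carry a mark and a change in signal per cell cannot be told apart in these bulk libraries.

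Peak lists without read counts were analysed, so depth is unknown. The libraries used here held 90092 and 92714 peaks for H3K27ac after TGF-beta against 82259 and 83429 with vehicle, 54682 and 56825 for H3K9ac after TGF-beta against 55069 and 61297 with vehicle, and 33700 and 34413 for SMAD3 after TGF-beta against 22451 and 25268 with vehicle. Per the file headers, TGF-beta replicate 2 of both marks came from sequencing lane 8 and the other mark libraries from lane 7, while all SMAD3 libraries came from lane 8. A region had to be called in TGF-beta libraries of both lanes to be gained. H3K27ac lay in or within 1 kb of 6 of 8 cholangiocyte marker genes in all 4 libraries (KRT7 and KRT19 among them), while CFTR had none and EPCAM had none in 1 TGF-beta library. Peaks in all 4 libraries also lay at 3 of 6 hepatocyte, 2 of 6 mesenchymal, 3 of 4 endothelial and 3 of 5 leukocyte markers, and ALB, TTR, DES and LUM had none. Summed over the mesenchymal markers, H3K27ac covered 17.2 and 18.4 kb in the TGF-beta libraries against 12.5 and 13.7 kb in the vehicle libraries, and over the cholangiocyte markers 52.3 and 52.7 kb against 55.5 and 58.7 kb. The sums were 4.91 and 5.15 kb after TGF-beta against 8.93 and 10.0 kb with vehicle over the hepatocyte markers, 20.1 and 19.4 kb against 17.5 and 17.1 kb over the endothelial markers, and 4.26 and 4.54 kb against 5.98 and 6.73 kb over the leukocyte markers. The part of other cell types in the gains was not tested.

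Both acetylation marks sit at active promoters and enhancers. H3K27ac is written mainly by the related acetyltransferases CBP and p300 and is used as a sign of active enhancers, and H3K9ac is written largely by GCN5 and PCAF and is usually strongest around start sites. TGF-beta binds cell surface receptor kinases that phosphorylate SMAD2 and SMAD3, which then enter the nucleus with SMAD4 and bind DNA together with other factors, among them AP-1. In bile ducts the pathway is known for its part in fibrosis and in the secretion of matrix by activated cells.

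Few of these regions lay at start sites, and 5 that did are shown as sequence. They are picked examples, all of protein-coding genes, and do not stand for the promoters that the class covers. RefSeq promoter windows (GRCh38.p14, 250 bases before to 50 after a start site) overlapped a region of this class 95 times, at 92 genes. Of these windows 42.1% belonged to protein-coding genes, against 63.3% of all windows. The TMEM95 and ZNF730 windows are shown because the regions over them were the promoter cases with SMAD3 peaks in both TGF-beta libraries and neither vehicle library. The windows of FGF1, a fibroblast growth factor, BBC3, which encodes the pro-apoptotic protein PUMA, and GPR176, an orphan receptor, were chosen after their values were seen, because each holds the AP-1 letters TGANTCA and lies wholly or almost wholly inside its region. Capitals mark matches to CAGAC (the SMAD-binding letters), TGANTCA or GGAATG (the TEAD letters) on either strand, and neighbouring matches run together.
TMEM95: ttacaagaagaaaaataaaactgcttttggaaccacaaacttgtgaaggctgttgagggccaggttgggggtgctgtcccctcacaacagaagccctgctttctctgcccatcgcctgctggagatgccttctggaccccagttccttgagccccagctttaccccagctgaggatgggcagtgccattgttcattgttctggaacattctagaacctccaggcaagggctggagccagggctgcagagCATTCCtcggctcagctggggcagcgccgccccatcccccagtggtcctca
ZNF730: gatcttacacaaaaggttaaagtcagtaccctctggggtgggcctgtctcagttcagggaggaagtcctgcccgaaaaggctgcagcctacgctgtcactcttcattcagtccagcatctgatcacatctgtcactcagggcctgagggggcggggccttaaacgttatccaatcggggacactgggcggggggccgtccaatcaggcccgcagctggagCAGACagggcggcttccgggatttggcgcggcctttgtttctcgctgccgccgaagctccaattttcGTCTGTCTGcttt
FGF1: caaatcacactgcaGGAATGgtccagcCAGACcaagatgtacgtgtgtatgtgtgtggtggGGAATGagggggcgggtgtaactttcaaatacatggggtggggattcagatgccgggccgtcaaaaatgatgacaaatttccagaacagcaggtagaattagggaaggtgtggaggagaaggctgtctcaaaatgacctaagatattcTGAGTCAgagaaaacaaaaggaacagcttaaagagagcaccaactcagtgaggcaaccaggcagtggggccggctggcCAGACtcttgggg
BBC3: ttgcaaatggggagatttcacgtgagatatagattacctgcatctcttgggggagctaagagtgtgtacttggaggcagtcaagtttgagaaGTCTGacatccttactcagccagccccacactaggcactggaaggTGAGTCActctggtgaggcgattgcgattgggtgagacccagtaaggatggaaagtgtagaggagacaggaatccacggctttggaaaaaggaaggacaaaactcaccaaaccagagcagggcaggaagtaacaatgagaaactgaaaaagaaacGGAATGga
GPR176: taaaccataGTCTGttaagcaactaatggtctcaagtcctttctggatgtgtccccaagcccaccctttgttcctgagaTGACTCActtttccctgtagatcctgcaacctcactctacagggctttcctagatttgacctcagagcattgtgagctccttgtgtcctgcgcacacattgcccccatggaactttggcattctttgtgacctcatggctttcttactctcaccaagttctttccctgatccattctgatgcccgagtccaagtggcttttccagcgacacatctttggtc
The TMEM95 window (chr17:7354906-7355205, plus strand, 56.7% G and C) lay inside a region of 564 bp, of which SMAD3 peaks covered 504 and 564 bp in the TGF-beta libraries and 0 bp in both vehicle libraries. ZNF730, a zinc finger gene (chr19:23116775-23117074, plus strand, 58.3% G and C), was overlapped by a region of 280 bp, with 207 and 205 bp of SMAD3 after TGF-beta and 0 bp in both vehicle libraries. That region covered only the first 115 bases of the window, and all marked matches lie past them, outside the region. The windows of FGF1 (chr5:142644190-142644489), BBC3 (chr19:47232618-47232917) and GPR176 (chr15:39829227-39829526), all on the minus strand, had no SMAD3 peak in their regions in any library. That held for 97.2% of the whole class. The GPR176 region covered 274 bases of its window and left out the first bases, where GTCTG is marked. The FGF1 region was 951 bp long with an H3K27ac score at percentiles 72.0 and 74.9 of the TGF-beta libraries, against class medians of 33.7 and 32.9. Its nearest H3K9ac peak began 227 bp away.

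Among all 95 windows, 32.6% held TGANTCA, against 7.68% of the 34961 windows on the same chromosomes. The share was 7.82% in the 179 windows over gained regions that overlapped H3K9ac, 22.6% in the 124 windows over regions called in all 4 H3K27ac libraries without H3K9ac, and 13.3% in the 30 windows over lost regions without H3K9ac. CAGAC, or GTCTG on the other strand, was in 66.3% of the 95 windows against 45.3% of all windows, and GGAATG, or CATTCC, in 25.3% against 14.0%. The SMAD palindrome GTCTAGAC was in none of the 95, against 0.197% of all windows. The 95 windows had a median of 51% G and C, against 58.7% over all windows and 64.3% over gained regions that overlapped H3K9ac, and base composition moves with motif counts. Below 50% G and C, TGANTCA was in 42.9% of 42 windows against 13.5% of all such windows, and at 50% or more in 24.5% of 53 against 5.13%. The match lay inside the H3K27ac region itself in 8 of the 95 windows for TGANTCA, in 31 for CAGAC and in 11 for GGAATG. Matches are a description of letters in these windows, and most of the 10275 regions lie outside any window.

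The regions were short and low in H3K27ac score. Their median length was 344 bp (interquartile range 257 to 488, full range 141 to 2355 bp) and they covered 4.14 Mb in all. Gained regions that overlapped H3K9ac, of which there were 2223, had a median of 436 bp, and the 611 of them in which H3K9ac was also called in both TGF-beta and neither vehicle library had a median of 780 bp. Regions called in all 4 H3K27ac libraries, called constant here, had a median of 647 bp without H3K9ac (8117 regions) and 1184 bp with it (35600 regions). The 3655 lost regions without H3K9ac, called in both vehicle and neither TGF-beta library, had a median of 329 bp. Lost and gained regions without H3K9ac were thus of like length, and both were shorter than constant regions.

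The deposited score of a peak is its own −log10 value within its library, so it was ranked within the library. Regions of this class lay at median percentiles of 33.7 and 32.9 in the 2 TGF-beta libraries, against 50.3 and 49.6 for gained regions that overlapped H3K9ac and 71.1 and 70.9 for gains of both marks. Constant regions without H3K9ac had medians of 47.7 and 46.6. The share that overlapped H3K9ac was compared with that of constant regions within the same limits of H3K27ac percentile. Among the 25% of gained regions with the lowest H3K27ac percentile, 10.9% overlapped H3K9ac, against 36.7% of constant regions within those limits. Among the 25% with the highest percentile the shares were 35.1% of gained and 90.0% of constant regions. Length was not matched in this comparison. Within the lowest limits, gained regions had a median of 294 bp without H3K9ac and 276 bp with it. Constant regions without H3K9ac had 508.5 bp there. The part of length in these shares was not tested. An H3K9ac signal under the calling threshold would not show in these lists.

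**Figure D1:**
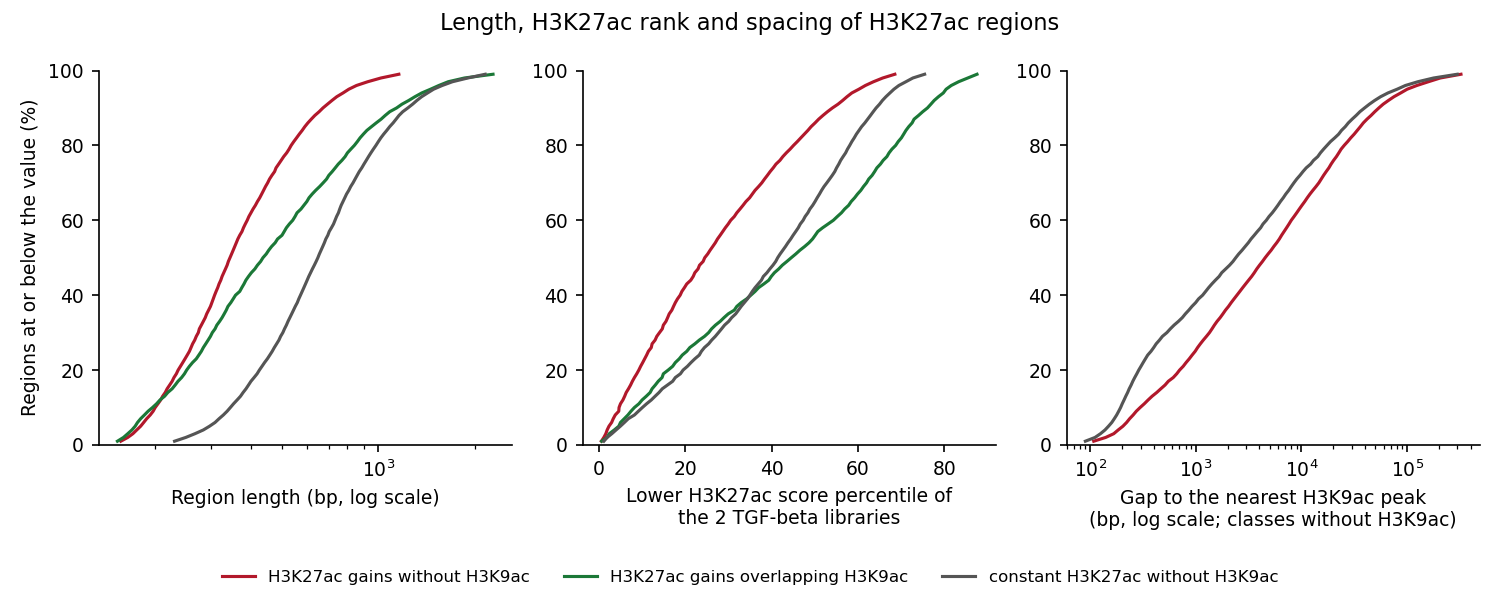
Cumulative share of regions (vertical axis, %) by region length in bp, by the lower of the 2 TGF-beta H3K27ac score percentiles, and by the gap in bp to the nearest H3K9ac peak, for gained regions without H3K9ac (red), gained regions overlapping H3K9ac (green) and constant regions without H3K9ac (grey). Gained regions without H3K9ac were shortest, with a median of 344 bp against 436 and 647 bp, and lay farther from H3K9ac than constant regions without it, with medians of 4530 and 2387 bp.

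The highest-ranking region lay inside the span of CDK5RAP1, which encodes an enzyme of mitochondrial tRNA modification (chr20:33387403-33388390, 988 bp). Its H3K27ac percentiles were 84.5 and 82.8 in the TGF-beta libraries, its nearest H3K9ac peak was 210 bp away, and it had SMAD3 over 187 and 209 bp after TGF-beta against 0 bp in both vehicle libraries. The others of the 8 highest had no SMAD3 peak in any library, like 97.2% of the whole class, so nothing is read from it. They included regions 35220 bp from BASP1, 12097 bp from NPSR1 and 3580 bp from DENND1A, and regions inside ZNF365 and MAMDC2. The MAMDC2 region (chr9:70120020-70120843) stood alone, 75265 bp from H3K9ac and 136971 bp from a constant H3K27ac region.
The longest region, of 2355 bp, lay at the end of ZBTB17, which encodes the MYC partner MIZ1 (chr1:15940223-15942577), 201 bp from an H3K9ac peak. The next in length were inside NDST1, ALOX5AP, GPR143 and CYTH1, with lengths of 2132, 2061, 1992 and 1971 bp. Like most of the class, these had no SMAD3 peak in any library.

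The limit that chose the regions was a touch of 1 bp. Just inside it, the nearest gaps to H3K9ac were 0 bp at a region near HAUS7, whose peak abuts the H3K9ac peak, and 2 bp at a region near IFFO2 and at a region of chromosome 5 with no gene within 50 kb. Just outside it, regions near PHRF1, PRR5L and ZDHHC8 overlapped H3K9ac by 3, 4 and 6 bp. Of the 2223 gained regions on the other side, 40.2% overlapped H3K9ac by under 50% of their length. Within 500 bp of an H3K9ac peak lay 15.7% of the regions of this class.

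Most of the regions lay away from gene ends. Only 324 (3.15%) lay within 1 kb of either end of a protein-coding gene, 54.7% lay further inside a gene and 42.1% outside genes. The share at gene ends was 15.8% for gained regions that overlapped H3K9ac, 3.52% for constant regions without H3K9ac, 3.89% for lost regions without H3K9ac and 20.1% for all merged regions. A RefSeq start site of a protein-coding gene lay within 1 kb of 126 regions (1.23%), against 12.5% of gained regions that overlapped H3K9ac. Start sites were at hand for 15811 of the 19970 protein-coding genes, and those of noncoding genes were not counted here. By position the class therefore stood beside the other classes that lack H3K9ac, whether gained, constant or lost. Its share of merged regions ran between 6.29% on chromosome 19 and 11.9% on chromosome 18, and its share of gained regions between 68.1% and 88.8% on the same chromosomes.

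Many of the regions lay near other H3K27ac regions, as those of other classes did. A constant H3K27ac region was within 1 kb of 32.1% of them, against 34.5% of gained regions that overlapped H3K9ac. The median gap to one was 4657 bp, against 4991 bp for those gains and 1672 bp for lost regions without H3K9ac. Another region of the class lay within 12.5 kb of 6278 (61.1%), which formed 2341 runs of 2 or more. There were 164 runs of 5 or more, with 1036 regions in them. Runs were not counted in the other classes, so these numbers are not shown to be particular to this class. The longest run had 24 regions over 75.8 kb of TNS3 (chr7:47486996-47562747), a tensin that links integrins to the actin cytoskeleton. Runs of 19 regions followed at GTF2IRD1 (44.8 kb), of 15 at VAV2, which encodes a signalling exchange factor (32.7 kb), and of 12 at PTPRF, a receptor phosphatase (30.4 kb). No region of these 4 runs overlapped a SMAD3 peak in any of the 4 libraries, nor did 97.2% of the whole class, so nothing is read from this. In the run of 9 at COL1A1, which encodes a chain of type I collagen, 3 regions overlapped SMAD3 in each TGF-beta library, against 0 and 1 in the vehicle libraries.

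Noncoding genes also held regions of the class, which lay in 984 of 18177 lncRNA genes. Of the class, 16.0% overlapped an lncRNA gene, near the 16.8% of all merged regions and the 17.4% of constant regions without H3K9ac. The genes with the most, named here after their counts were seen, were CASC15 with 18, PVT1 with 16 and MIR4435-2HG with 12 among those with a gene name. MIR100HG on chromosome 11 held 11, all in 1 run over 61.7 kb (chr11:122146226-122207962). No SMAD3 peak overlapped them, as was the case for 97.2% of the whole class. The first of the 11 overlapped the hairpin of MIRLET7A2 (chr11:122146522-122146593), shown because let-7 miRNAs are known repressors of HMGA2, which also had regions of the class. Its mature guide, with the seed (bases 2 to 8) in capitals, is:
hsa-let-7a-5p: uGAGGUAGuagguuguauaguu
In all, 7 regions (0.0681%) overlapped a miRNA gene, against 0.243% of all merged regions, and the others were MIR6809, MIR6890, MIR587, MIR8073, MIR7855 and MIR7850.

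SMAD3 was not used to choose the regions and is the readout on which they can be compared between treatments. SMAD3 peaks overlapped 2.03% and 1.70% of the 10275 regions in TGF-beta replicates 4 and 5 (209 and 175 regions), against 0.156% and 0.360% in vehicle replicates 4 and 5 (16 and 37 regions). Both TGF-beta libraries were above both vehicle libraries. The mean was 1.87% ± 0.23 after TGF-beta and 0.26% ± 0.14 with vehicle (SD, n = 2 libraries each), a difference of 1.61 percentage points (two-sided exact permutation test over libraries, p = 0.333, the smallest that 2 against 2 allow). With equal peak numbers per SMAD3 library the difference was 0.560 points. In the same libraries SMAD3 peaks overlapped 23.3% and 23.9% of all merged regions after TGF-beta, against 18.4% and 20.3% with vehicle. Nearly all of the regions therefore had no SMAD3 peak at all: 9983 (97.2%, exact 95% interval 96.8 to 97.5%) had none in any of the 4 libraries.

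SMAD3 peaks were on a larger share of the gained regions that overlapped H3K9ac, in each of the 4 libraries. Their share was 22.9% and 22.5% after TGF-beta against 3.96% and 6.66% with vehicle, a difference of 17.4 points. The difference without H3K9ac minus the difference with it was -15.8 points (two-sided exact permutation p = 0.333, the smallest possible). Gains of both marks had 28.6% and 26.0% after TGF-beta and 0.327% in both vehicle libraries. Constant regions without H3K9ac had 1.85% and 1.81% after TGF-beta against 0.382% and 0.653% with vehicle, a difference of 1.31 points. The difference in the gained regions without H3K9ac was 0.30 points above that (exact permutation p = 0.333). Lost regions without H3K9ac had 1.18% and 1.04% after TGF-beta, against 0.219% and 0.602% with vehicle. Over whole classes, the SMAD3 share after TGF-beta was between 1.04% and 2.03% where H3K9ac was missing, in gained, constant and lost regions alike. It was between 22.5% and 61.4% where H3K9ac was present. At gene ends the gained regions without H3K9ac had higher shares, given below.

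**Figure D2:**
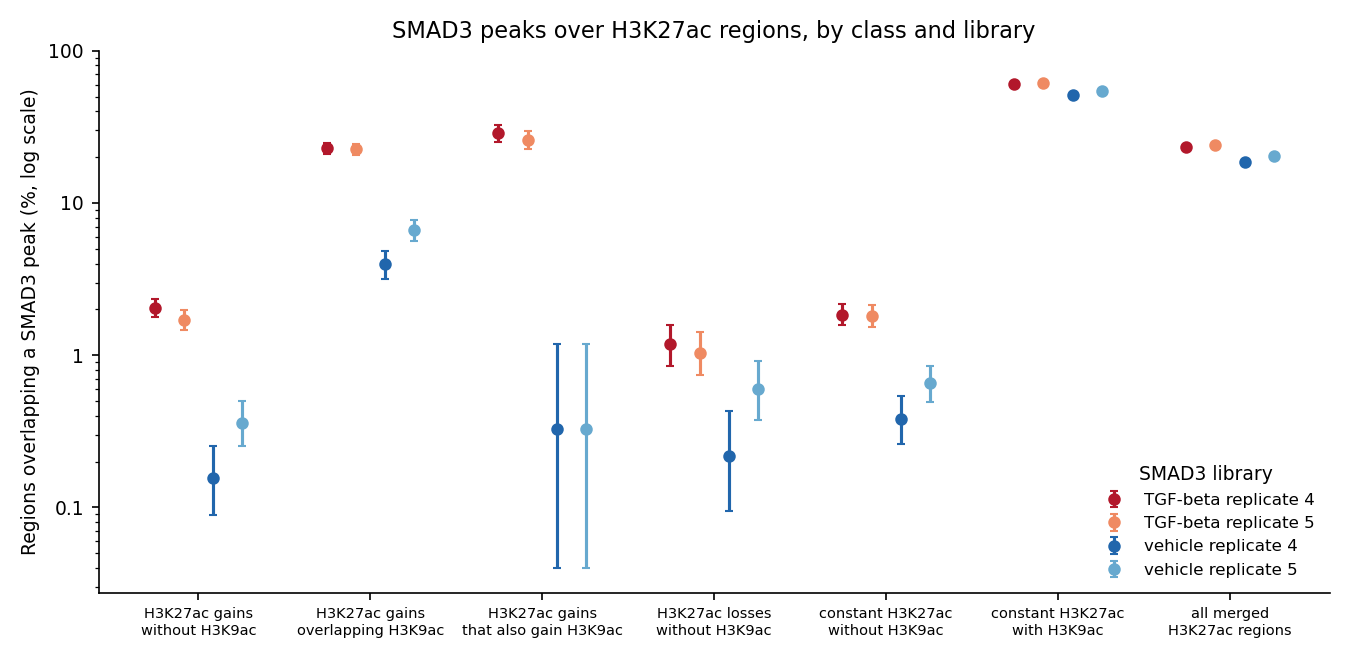
Share of regions that overlap a SMAD3 peak (vertical axis, %, log scale) in each of the 4 SMAD3 libraries, by class of H3K27ac region. Points are libraries (reds TGF-beta, blues vehicle) and bars are exact 95% intervals for counting error. The gained regions without H3K9ac, at 2.03 and 1.70% after TGF-beta, sit beside the constant regions without H3K9ac, at 1.85 and 1.81%, and below gained regions that overlap H3K9ac, at 22.9 and 22.5%.

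Both classes of gain were also set side by side within the same limits of H3K27ac percentile. Rank was not matched inside those limits, and length differed. In the highest 25% the median length was 535.5 bp without H3K9ac and 729 bp with it. Among the 25% of gained regions with the highest H3K27ac percentile, 2.91% and 2.42% of the 2028 regions without H3K9ac had SMAD3 after TGF-beta, against 0.0493% and 0.0986% with vehicle. Within the same limits, gained regions that overlapped H3K9ac had 25.3% and 22.8% after TGF-beta, against 1.73% and 2.37% with vehicle. Among the lowest 25% the shares after TGF-beta were 1.90% and 1.44% without H3K9ac, and 13.8% and 16.1% with it. By length, the 223 regions of 1000 bp or more had SMAD3 in 5.83% and 3.59% after TGF-beta, against 0.448% in both vehicle libraries. Gained regions of that length that overlapped H3K9ac had 37.4% and 35.8% after TGF-beta. At gene ends, 16.4% and 10.2% of the 324 regions had SMAD3 after TGF-beta, against 2.47% and 4.63% with vehicle, while inside genes the shares were 1.65% and 1.51% after TGF-beta against 0.0534% and 0.196% with vehicle.

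Among the regions themselves, the share with SMAD3 went down with distance from H3K9ac. The share with SMAD3 after TGF-beta was 3.51% and 2.85% in the 2596 regions under 1 kb from an H3K9ac peak, 2.45% and 1.94% at 1 to 10 kb, 0.617% and 0.771% at 10 to 50 kb and 0.447% and 0.358% in the 1118 regions at 50 kb or more. Constant regions without H3K9ac had a like order, with 2.94% and 3.29% under 1 kb and 0.313% and 0.156% at 50 kb or more. Regions near H3K9ac are also near genes and near other SMAD3 peaks, and those were not separated. A SMAD3 peak gained with TGF-beta lay within 10 kb of 28.0% of the regions under 1 kb from H3K9ac and of 0.0894% of those at 50 kb or more. Over all of the regions that share was 17.1%, near the 16.9% of all merged regions. It was 30.1% in gained regions that overlapped H3K9ac and 11.2% in constant regions without H3K9ac.

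**Figure D3:**
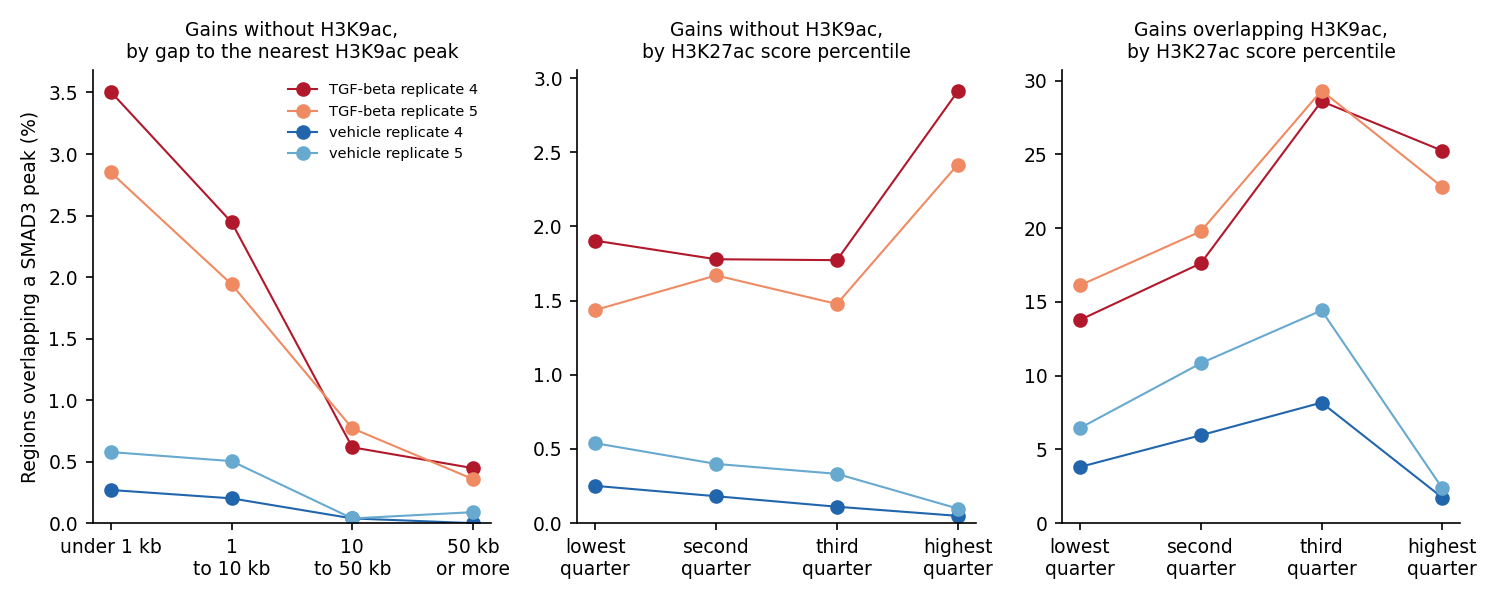
Share of regions that overlap a SMAD3 peak (vertical axes, %, on different scales) in each SMAD3 library, for gained regions without H3K9ac by gap to the nearest H3K9ac peak (left) and by class of H3K27ac score percentile, each with 25% of all gained regions (middle), and for gained regions overlapping H3K9ac by the same classes (right). Without H3K9ac, the TGF-beta libraries run between 3.51% under 1 kb and 0.358% at 50 kb or more, and the highest class has 2.91 and 2.42% against 25.3 and 22.8% where H3K9ac is present.

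SMAD3 called in both TGF-beta and neither vehicle library, the same pattern that defined the H3K27ac gain, was found in 66 regions (0.642%, exact 95% interval 0.497 to 0.816%), against 2.54% of all merged regions. With equal peak numbers per SMAD3 library the share of the class was 0.311%. It was in 11.0% of gained regions that overlapped H3K9ac, in 18.2% of gains of both marks and in 0.604% of constant regions without H3K9ac. The opposite SMAD3 pattern was in 0 regions, which allows a share of up to 0.0292% (3 counts; the exact 95% upper limit is 0.0359%), against 0.136% of all merged regions. The 66 regions had a median length of 430.5 bp and lay at 53 genes, with 2 at no gene, and 14 of them lay at gene ends, 35 inside genes and 17 outside. TGFBI had 7, and ACP2, CDC6, JPT1, PDLIM7 and WBP2 had 2 each. Of the 8 with the highest SMAD3 rank, 6 were at TGFBI, and the others were the ZNF730 promoter region and a region at the end of PDLIM7, an actin-associated PDZ and LIM protein (chr5:177483035-177483572), all 538 bp of which lay in SMAD3 peaks in both TGF-beta libraries, against 0 bp in both vehicle libraries. Genes with 1 included COL1A1 and FN1 of the matrix, TPM1 of the cytoskeleton, and the secreted factors PDGFB and IL11.

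TGFBI, which encodes a secreted matrix protein and is a TGF-beta target by name, was the gene where these regions and SMAD3 met most. It had 14 regions of the class, 237 to 787 bp long. The 5 that lay 18266 to 30402 bp before the gene had no SMAD3 peak in any library. The 9 inside or just behind the gene all had SMAD3 in TGF-beta replicate 4, and 7 of them had it in TGF-beta replicate 5, while none had it in a vehicle library. Of those, 5 regions between chr5:136034352 and chr5:136042862 lay under 1 SMAD3 peak that ran over the first 15.9 kb of the gene in TGF-beta replicate 4, at score percentile 98.7, so they are not separate SMAD3 events. Within 10 kb of the gene, SMAD3 peaks covered 38.2 and 29.4 kb after TGF-beta, against 0.526 and 0.913 kb with vehicle. H3K27ac covered 26.4 and 25.2 kb after TGF-beta, against 11.7 and 13.0 kb with vehicle. The class was chosen for H3K27ac gains, so H3K27ac length here and at the genes below is not a separate readout.

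**Figure D4:**
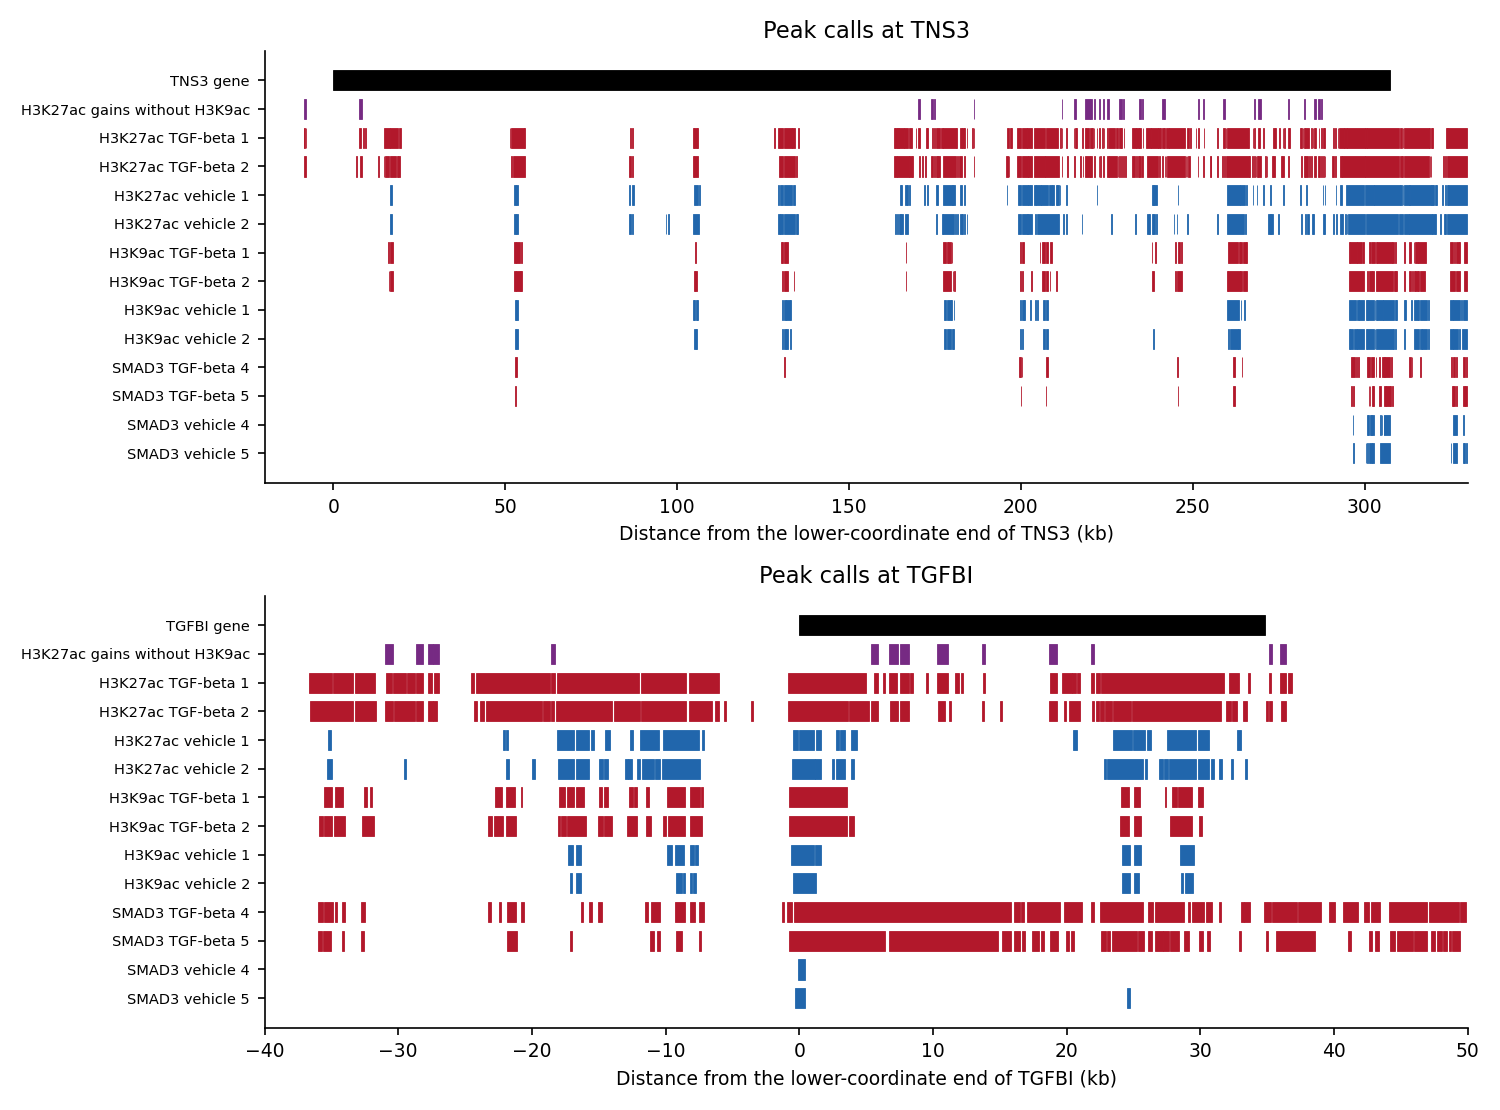
Peak calls of all 12 libraries (rows; red TGF-beta, blue vehicle) at TNS3 and TGFBI, with the gene in black and gained H3K27ac regions without H3K9ac in purple; the horizontal axis is the distance in kb from the lower-coordinate end of the gene. At TNS3 none of the purple regions overlaps a SMAD3 peak, and at TGFBI those inside the gene overlap SMAD3 peaks of TGF-beta replicate 4, most of them also of TGF-beta replicate 5, and no SMAD3 peak with vehicle.

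To ask what SMAD3 did at the genes around these regions, each region was given to the closest protein-coding gene, at most 50 kb away, and SMAD3 peak length within 10 kb of every gene was compared between treatments. A gene for 8343 regions (81.2%) was found, and 3653 genes had 1 or more and 1031 had 3 or more. SMAD3 peak length rose at 1406 (11.2%) and fell at 175 (1.4%) of 12505 genes tested (limma on log2 of the length plus 500 bp, each library centred on its median, adjusted p under 0.05 over all genes). Of the 1031 genes with 3 or more regions, 856 passed the filter on low values, and 261 of them rose (30.5%) and 5 fell, with a median log2 change of 0.19 against -0.01 over all genes tested. Among genes with 3 or more constant regions without H3K9ac, 134 of 620 rose (21.6%), among those with 3 or more lost regions without H3K9ac 20 of 221 rose and 14 fell, and among those with 3 or more gained regions that overlapped H3K9ac 52 of 86 rose (60.5%). Genes without a region of the class rose in 848 of 9678 cases (8.76%).
Genes in these sets overlap, and they differ in size: the median gene span was 107 kb with 3 or more regions and 122 kb with 3 or more constant regions without H3K9ac, against 24.2 kb over all genes. The part of gene span in these counts was not tested. When every SMAD3 library was cut to equal peak numbers by score, 147 of 832 genes with 3 or more regions rose (17.7%), against 5.15% of all genes. Leaving out vehicle replicate 4 gave 742 genes that rose in all and 182 of 876 with 3 or more regions. Leaving out TGF-beta replicate 4 gave 903 in all and 198 of 838. The TGF-beta libraries had more SMAD3 peaks, and their median gene was 0.31 higher on the log2 scale before centring, so changes are relative to that shift. Without centring, 11 genes in all fell.

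The 15 genes with the most regions held 263 of them, and SMAD3 peak length rose at 13 of the 15 and fell at none. None of the 263 regions had gained SMAD3, a pattern found in 0.642% of all regions of the class, so nothing is read from its absence here. TNS3 had 30 regions, and H3K27ac covered 107 and 103 kb within 10 kb of it after TGF-beta, against 55.9 and 64.9 kb with vehicle. Its SMAD3 length was 10.4 and 5.70 kb after TGF-beta, against 3.82 and 5.41 kb with vehicle, and did not pass (log2 change 0.40 ± 0.25 SE, adjusted p = 0.317). At RAD51B, a DNA repair gene with 21 regions, SMAD3 covered 12.5 and 11.8 kb after TGF-beta, against 3.92 and 4.84 kb with vehicle (log2 change 1.08 ± 0.12, limma adjusted p = 0.00118). SHB, which encodes a signalling adaptor, had 16 regions, with SMAD3 over 5.47 and 4.37 kb after TGF-beta, against 0.757 and 1.55 kb with vehicle (1.44 ± 0.19, adjusted p = 0.00238). NAV2, a neuron navigator gene with 15, had SMAD3 over 6.65 and 6.66 kb after TGF-beta, against 1.29 and 2.01 kb with vehicle (1.45 ± 0.14, adjusted p = 0.000516). Both TGF-beta lengths were above both vehicle lengths at all 15 genes, those that did not pass included. How often that order held over all genes tested was not counted, so nothing is read from it. TNS3 and NRG1, a growth factor gene, were the 2 of the 15 that did not pass.

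The 13 also included CTIF, TRIO, ME3, MYLK, MICAL2 and ASAP2, with log2 changes of 0.85 to 1.40. MYLK encodes myosin light chain kinase and MICAL2 an actin oxidising enzyme. GTF2IRD1, UACA, VAV2 and VMP1 rose by less, with log2 changes of 0.59 to 0.83 and adjusted p-values of 0.0139 to 0.0354. The calls at GTF2IRD1, UACA, VAV2, MYLK and ME3 did not pass with equal peak numbers per SMAD3 library, and at MYLK the change was then 0.05. The calls at GTF2IRD1, UACA, TRIO, VAV2 and VMP1 did not pass without vehicle replicate 4, those at UACA, VAV2 and VMP1 without TGF-beta replicate 4, and that at UACA without vehicle replicate 5.

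**Figure D5:**
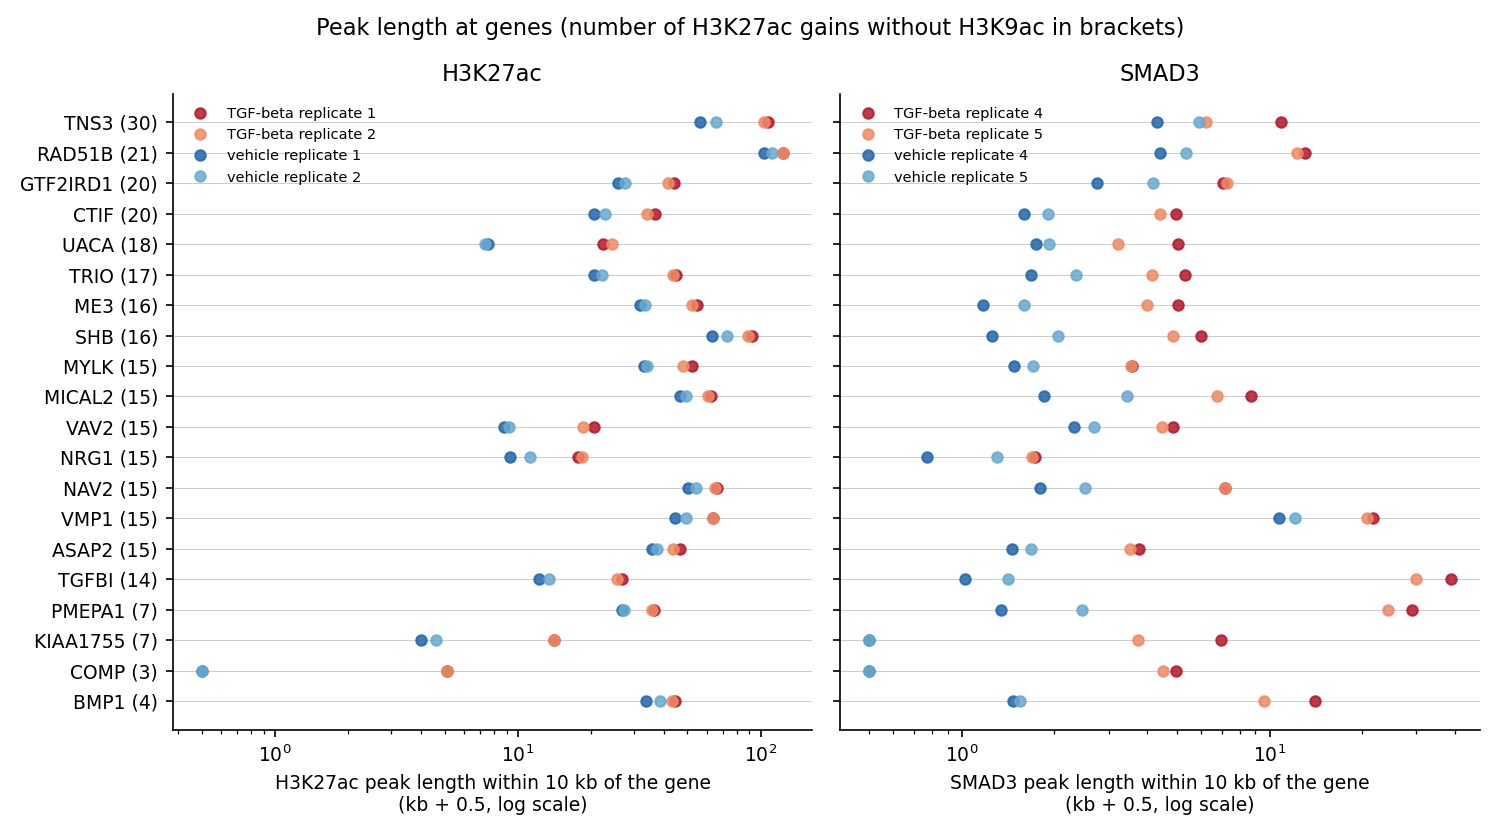
Length of H3K27ac peaks (left) and SMAD3 peaks (right) within 10 kb of each gene (horizontal axes, kb plus 0.5, log scale) in each library, for the 15 genes with the most gained H3K27ac regions without H3K9ac and the 5 with the largest SMAD3 rise among genes with 3 or more. Reds are TGF-beta and blues vehicle libraries. SMAD3 at TGFBI is 38.2 and 29.4 kb against 0.526 and 0.913 kb, while TNS3, with 30 regions, has 10.4 and 5.70 kb against 3.82 and 5.41 kb.

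Among genes with 3 or more regions, TGFBI had the largest SMAD3 rise (log2 change 4.52 ± 0.17 SE, limma adjusted p = 4.07e-05). It was followed by PMEPA1, a TGF-beta target whose product dampens SMAD signalling, with SMAD3 over 28.6 and 23.7 kb after TGF-beta, against 0.844 and 1.95 kb with vehicle (3.56 ± 0.21, adjusted p = 0.000132). PMEPA1 had 7 regions of the class. At KIAA1755 SMAD3 covered 6.44 and 3.25 kb after TGF-beta and was listed with no peak in either vehicle library (adjusted p = 0.00038). COMP, a matrix protein of cartilage, had 3 regions, with SMAD3 over 4.48 and 4.01 kb after TGF-beta and no peak with vehicle (adjusted p = 6.35e-05). H3K27ac at COMP was 4.64 and 4.61 kb after TGF-beta, against no peak in either vehicle library. COMP is listed for its H3K27ac gains, so this is not a separate readout. BMP1, a protease that processes procollagen, had SMAD3 over 13.6 and 9.11 kb after TGF-beta, against 0.971 and 1.05 kb with vehicle (2.64 ± 0.19, adjusted p = 0.000215).

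SMAD3 length fell at 5 genes with 3 or more regions: RARRES1, MAGI1, GMDS, NALCN and CLIC4. At RARRES1, a retinoid-responsive gene, SMAD3 covered 0.386 and 0.358 kb after TGF-beta, against 0.728 and 0.751 kb with vehicle (log2 change -0.81 ± 0.13, limma adjusted p = 0.0047). H3K27ac at RARRES1 was 5.03 and 5.26 kb after TGF-beta, against 2.40 and 2.46 kb with vehicle. The gene is listed for its H3K27ac gains, so this rise follows from the choice and is not a separate readout. At MAGI1, a junction scaffold, SMAD3 covered 1.23 and 0.995 kb after TGF-beta, against 1.29 and 1.60 kb with vehicle (-0.57 ± 0.13, adjusted p = 0.0259). The libraries overlapped at NALCN, with 0.545 and 0.402 kb after TGF-beta, against 0.499 and 0.803 kb with vehicle. CLIC4 had 0.534 and 0.694 kb after TGF-beta, against 0.704 and 0.804 kb with vehicle. GMDS had 0.759 and 0.840 kb after TGF-beta, against 0.880 and 1.227 kb with vehicle. All 5 kept their sign and none passed without centring, where the RARRES1 change was -0.51 (adjusted p = 0.0501). MAGI1, GMDS and CLIC4 also did not pass without vehicle replicate 4 or vehicle replicate 5, nor did NALCN without vehicle replicate 4. Leaving out TGF-beta replicate 4 ended the call at GMDS and CLIC4, and leaving out TGF-beta replicate 5 that at MAGI1, CLIC4 and NALCN. Equal SMAD3 peak numbers ended the calls at MAGI1, GMDS and NALCN, and a replicate block those at NALCN and CLIC4 (adjusted p = 0.0628 and 0.067). RARRES1 passed under both of these and without either TGF-beta library, and without either vehicle library its mean length was under the filter of 500 bp, so it was not tested.

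Genes were also grouped by role. Of 24 TGF-beta and SMAD target genes, 18 had 1 or more regions of the class, 113 in all, against 18.3% of all protein-coding genes. These lists were drawn up with TGF-beta biology and earlier results in view, and gene span was not matched. Among the 17 tested for SMAD3 with a region, 11 rose and none fell, with a median log2 change of 1.24. In the whole list 14 of 22 tested genes rose and none fell, against 11.2% that rose among all genes tested. RUNX1, a transcription factor, had 12 regions, with SMAD3 over 6.05 and 5.43 kb after TGF-beta, against 1.37 and 2.26 kb with vehicle (1.15 ± 0.15, limma adjusted p = 0.00243). NEDD9, a focal adhesion scaffold, had 10, with SMAD3 over 2.40 and 2.08 kb after TGF-beta, against 0.317 and 0.329 kb with vehicle (1.43 ± 0.13, adjusted p = 0.000543). Others that rose included TGFBI, PMEPA1, SMAD7, SKIL, ANGPTL4, LTBP2, SNAI2 and BHLHE40, and TGFB2, TGFBR2, LTBP1, TGIF1, SMURF1 and SMURF2 did not pass. LTBP1, which encodes a latent TGF-beta binding protein and is given as an example chosen after its values were seen, had 9 regions and SMAD3 over 1.79 and 1.74 kb after TGF-beta, against 1.25 and 1.28 kb with vehicle. Of the regions at these genes 7 had gained SMAD3, all of them at TGFBI.

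Matrix and collagen genes had regions at 16 of 26 and integrin and cytoskeleton genes at 17 of 25. Of the 14 matrix genes with a region that were tested, 7 rose in SMAD3 and none fell, against 12 of the 20 tested in the whole list. COL1A1 had 9 regions, with SMAD3 over 16.4 and 10.2 kb after TGF-beta, against 2.56 and 3.53 kb with vehicle (1.63 ± 0.21, limma adjusted p = 0.00241). COL4A2, a chain of basement membrane collagen, had 8, with SMAD3 over 6.92 and 5.05 kb after TGF-beta, against 0.828 and 1.65 kb with vehicle (1.62 ± 0.20, adjusted p = 0.00191). Its window overlaps that of the neighbouring COL4A1, so both share SMAD3 peaks. COL5A1 had 8 and also rose (0.98 ± 0.12, adjusted p = 0.0021), a call that did not pass with equal peak numbers per library. Of the 17 cytoskeletal genes with a region, 12 rose and none fell, against 16 that rose and 1 that fell of the 25 in the whole list. PALLD, an actin-bundling protein of stress fibres, had 13 regions, with SMAD3 over 6.38 and 4.39 kb after TGF-beta, against 0.967 and 1.40 kb with vehicle (1.49 ± 0.18, adjusted p = 0.00167), which did not pass with equal peak numbers (adjusted p = 0.0989). ACTN1, the actin cross-linker alpha-actinin, had 9 regions and rose by 1.02 ± 0.12 (adjusted p = 0.00134).

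Genes of epithelial to mesenchymal transition had regions at 7 of 14, YAP target genes at 7 of 14, secreted profibrogenic factors at 10 of 18, and AP-1 and immediate early genes at 6 of 15. Of those tested with a region, 2 of 5, 3 of 7, 3 of 9 and 3 of 6 rose in SMAD3 in the same order, and none fell. In the whole lists 3 of 11, 4 of 14, 5 of 14 and 4 of 14 rose, and 1 gene of epithelial to mesenchymal transition and 1 secreted factor fell. HMGA2, a chromatin factor of mesenchymal cells, had 5 regions and SMAD3 over 2.39 and 3.26 kb after TGF-beta, against 2.32 and 2.29 kb with vehicle, which did not pass. SNAI2, a repressor of epithelial genes, had 4 regions and rose in SMAD3, with 3.23 and 2.86 kb after TGF-beta, against 0.635 and 0.80 kb with vehicle (1.24 ± 0.12, limma adjusted p = 0.000717). MMP2, which encodes a matrix-degrading enzyme, had 5 regions and too little SMAD3 for a test, with 0.408 and 0.457 kb after TGF-beta and no peak with vehicle. EDN1, FGF2 and HBEGF, which encode endothelin and growth factors, had 7, 5 and 5 regions, and none passed in SMAD3. FOSL2, an AP-1 subunit, had 11 regions, with SMAD3 over 5.03 and 4.80 kb after TGF-beta, against 2.90 and 3.34 kb with vehicle, which did not pass (0.28 ± 0.12, adjusted p = 0.167). IER3, a stress response gene, rose (0.56 ± 0.12, adjusted p = 0.0171), a call that did not pass without TGF-beta replicate 4, TGF-beta replicate 5 or vehicle replicate 4, and that turned to -0.059 within 2.5 kb of the gene. DLC1, from the list of YAP targets, had 9 regions and an adjusted p of 0.0489, which did not pass without TGF-beta replicate 4 or vehicle replicate 4, nor without centring, with a replicate block or with equal peak numbers, while TEAD1 and PTPN14 did not pass.

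Epithelial genes formed the last lists. Regions of the class lay at 8 of 22 junction genes and at 4 of 17 cholangiocyte identity genes. In the whole junction list 3 of 18 tested genes rose in SMAD3 and 2 fell, and 1 of 9 tested cholangiocyte genes rose. Of the 8 junction genes with a region, none rose and CDH3, which encodes P-cadherin and is named after its values were seen, fell in SMAD3 (-0.58 ± 0.16, limma adjusted p = 0.0481), with -0.27 and adjusted p = 0.416 without centring and adjusted p-values up to 0.139 without 1 library. SMAD3 at CDH3 covered 1.211 and 1.306 kb after TGF-beta, against 1.207 and 2.131 kb with vehicle, so both TGF-beta lengths were above vehicle replicate 4. The 2 cholangiocyte genes tested, ANXA4 and SCTR, did not pass. TJP1, which encodes the tight junction protein ZO-1, had 8 regions, with SMAD3 over 3.80 and 3.59 kb after TGF-beta, against 2.40 and 2.83 kb with vehicle (0.13 ± 0.12, limma adjusted p = 0.494). PKP2, a desmosome protein, had 7 regions and 3 lost regions without H3K9ac, and GRHL2, an epithelial transcription factor, had 3 regions. SCTR, the secretin receptor of cholangiocytes, had 2 regions and 5 gained regions that overlapped H3K9ac, and H3K27ac there was 8.98 and 9.61 kb after TGF-beta, against 1.77 and 2.13 kb with vehicle. Its SMAD3 length was 0.541 and 0.780 kb after TGF-beta, against 0.375 and 0.543 kb with vehicle, and did not pass. Housekeeping genes had regions at 2 of 20, PPIA with 2 and ACTB with 1, and neither changed past the threshold.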

How the data were processed

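Peak lists of 12 libraries were analysed. Per the submitters' processing notes, BWA, Picard, MACS2 and bedtools were used with hg38; their order, versions and settings are not stated there. Each deposited peak has a score, read here as the −log10 of a p or q value from the authors' peak caller; whether it is p or q is not settled. There is 1 list per library. The 4 input libraries were left out, as were peaks off chromosomes 1 to 22 and X.

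Regions, shares and gaps were computed in Python 3.11.15 with numpy 2.4.6, pandas 2.3.3 and scipy 1.17.1. Score percentiles are ranks within a library. Regions were assigned to the nearest RefSeq protein-coding gene (GRCh38.p14, 19970 genes) within 50 kb, and a gene end means within 1 kb of either end. SMAD3 peak length in each gene with 10 kb on each side was compared between treatments with limma 3.58.1 (R 4.3.3) on log2(length + 500 bp), after centring each library on its median, leaving out genes whose mean was under 500 bp, with Benjamini-Hochberg adjustment over all genes and a threshold of 0.05. The script was tested on simulated data. Peak length stands in for occupancy and moves with the number of peaks called. With no read counts, no interval for a single value could be had beyond binomial counting error.

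The regions, gene lists and named genes were chosen with earlier results of these data known. Named were the 15 genes with the most regions, up to 3 genes per list with the most, the 5 largest SMAD3 rises and up to 5 falls among genes with 3 or more regions, the 8 regions of highest H3K27ac rank, the 8 of highest SMAD3 rank among those that gained SMAD3, the 5 longest, and the 3 just inside and 3 just outside the H3K9ac limit; regions on chromosome 8 were not named. Genes and promoters named otherwise are marked in the text as chosen after their values were seen or belong to a gene list. Some items are not reported here. Motifs were searched as letters on both strands in RefSeq promoter windows only, since no genome sequence was used here. Alternatives tried were other H3K9ac limits, score limits, equal peak numbers, pseudocounts, filters, centring, windows, limma's trend and robust options, a replicate block and leaving out each library.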

Additional observations from a re-analysis of the deposited data

How the results depend on the processing

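The number of regions was 4982 when no H3K9ac peak was allowed within 5 kb, and 10314 to 20558 without 1 library, with 19539 and 20558 where TGF-beta replicates 1 and 2 of H3K27ac were left out and a single call then sufficed. With equal peak numbers per library there were 8196 gains and 4388 losses without H3K9ac, against 10275 and 3655 as deposited, and 78.3% of the regions were shared. The percent that gained SMAD3 was 0.473 with no H3K9ac within 500 bp, 0.201 within 5 kb, 1.19 when H3K9ac could cover under 50% of the region, 0.311 with equal SMAD3 peak numbers, 2.06 with SMAD3 counted within 500 bp, and 0.599 to 1.72 without 1 library. The percent at gene ends was 2.41 and 1.69 with no H3K9ac within 500 bp and 5 kb, and 3.21 to 3.52 without 1 library. The difference in SMAD3 share was above 0 under every alternative, with 0.560 points for equal SMAD3 peak numbers, 4.11 for SMAD3 within 500 bp, and 1.45 to 1.78 without 1 library.

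Genes that rose in SMAD3 numbered 2306 with a 50 kb window, 631 with equal peak numbers and 742 to 1652 without 1 library. Genes that fell numbered 113 with a pseudocount of 2000 bp, 267 with no filter, 11 with no centring, 107 and 671 with windows of 2.5 and 50 kb, 84 with equal peak numbers, and 73 to 144 without 1 library. Genes with 3 or more regions that rose numbered 147 with equal peak numbers and 182 to 262 without 1 library. The change at IER3 was -0.059 with a window of 2.5 kb, and the cause was not tested. Of 33 named genes with a SMAD3 call, 17 kept it under every alternative that gave them a value. The filter left no value for COMP with a window of 2.5 kb, for NALCN without vehicle replicate 5, and for RARRES1 without either vehicle library. With a replicate block, 1299 genes rose, 129 fell and 249 of those with 3 or more regions rose; the numbers are only names here, since deviations of same-numbered libraries had a correlation of -0.07. Where 1 library is left in a group, it is assumed to vary like the other group. Depth is unknown, so a missing call is not shown to be missing signal.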
